A study of Arabidopsis thaliana with 8 samples.

Results

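The genes described here are transcripts that are abundant at the tip of the wild type Arabidopsis thaliana inflorescence stem and scarce at its base, and whose difference between tip and base is much smaller in the cov mutant. They were chosen by measured values on an ATH1 array, an Affymetrix oligonucleotide array that reads each transcript with a probe set. The rule took the mean log2(signal + 12) of each group and kept probe sets with exactly 1 gene, a mean signal of at least 50 over all 8 arrays, a wild type tip minus base difference of at least 2, and a cov difference of at most 50% of the wild type one. Of 22810 probe sets, which name 13356 genes singly, 6050 had 1 gene and enough signal, 256 of these were tip-high in wild type, and 50 had the reduced gradient in cov. The cap of 300 genes was not reached.

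Each of 4 groups had 2 arrays, namely stem tip and stem base of cov and of the accession Ler-0, which served as wild type. Per the labels every stem came from plants of growth stage 6.10, raised on compost at 22 °C, 65% humidity and 24 hours of light, with an insecticide. The cov mutant is named for the continuous vascular ring that replaces the separate bundles of the normal stem. The labels give neither the allele, the background of cov nor the length of stem taken, and nothing says that the 2 arrays of a group came from separately grown plants.

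An Arabidopsis inflorescence stem matures from top to bottom. Cells near the tip divide and elongate, loosen and rebuild a pectin-rich primary wall, and cover their surface with cutin and wax. Cells at the base have stopped elongating, and fibres and xylem there lay down secondary walls of cellulose, xylan and lignin. A tip sample may also hold young flower buds, whose anthers express their own sets of wall enzymes and lipid genes.

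The labels of the stem parts were checked against marker genes, few of which had a named probe set. The summed signal of the 3 fibre and xylem markers found, IRX15, IRX15-L and GUT2, of 25 listed, was 170 to 189 on wild type tip arrays and 2316 to 2902 on wild type base arrays, and 225 to 228 and 1235 to 1759 in cov. Of 16 listed markers of dividing cells and meristem, 3 had a probe set, AUR1, AUR2 and CLV3. AUR1 and AUR2, mitotic kinases, were higher at the tip in both genotypes. Their mean signals were 188 and 74.7 at the wild type tip against 59.6 and 28.8 at its base. CLV3 was dim in every group and not higher at the wild type tip, with means of 2.35 there and 4.9 at its base. COV1 and its relatives had 0 named probe sets, so the targeted gene could not serve as a check of genotype. Array medians lay between 41.4 and 50.1, the lowest being wild type base array 1.

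The 50 genes were tip-high in wild type on every array, since both tip arrays exceeded both base arrays for 50 of 50. This also held for 47 of 50 in cov, so most of the genes kept a reduced gradient. The wild type gradient ranged from 2.0 to 5.49 on the log2 scale with a median of 2.86, and the cov gradient from -0.06 to 2.29 with a median of 1.12. The cov gradient was 41.3% of the wild type one at the median, against 79.6% for the 206 tip-high genes that the rule left out. All of these values were used by the rule and are description only.

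**Figure D1:**
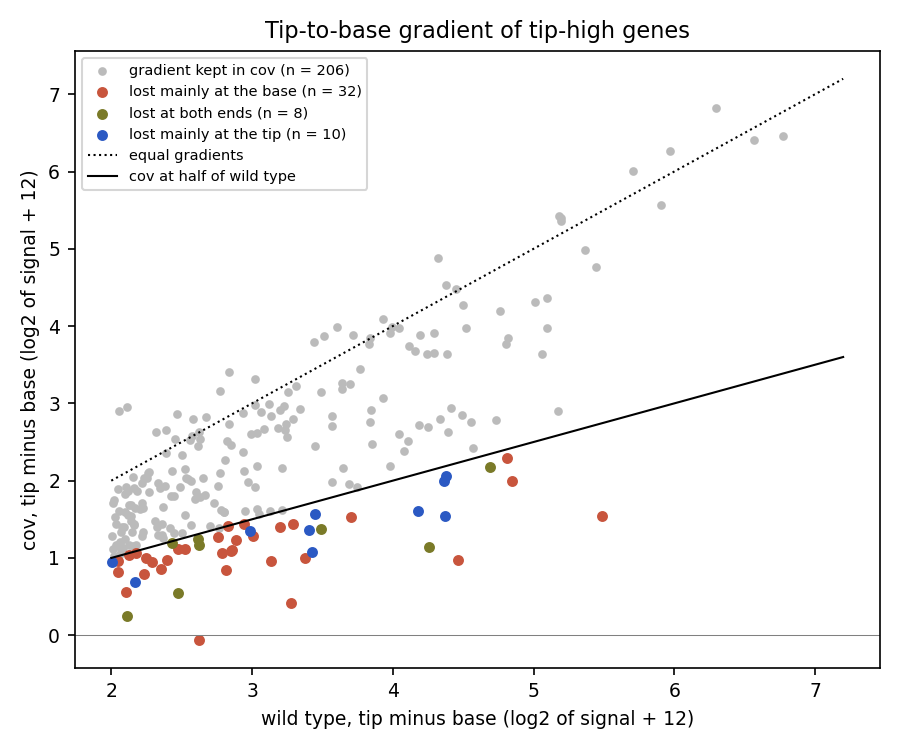
Tip minus base difference (log2 of signal + 12) in cov against that in wild type for 256 tip-high genes, each point a probe set. The 50 genes described lie on or below the solid line at 50% of the wild type value, and 179 of the 206 others lie between it and the dotted line of equal gradients.

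At the limits of the rule, AT4G10260 and AT2G41950 were just inside with wild type gradients of 2.0 and 2.05, and AT5G55070 and AT5G61660 just outside with 1.97 and 1.97. AT4G28780 and AT1G12330 had cov gradients of 49.8% and 49.3% of wild type, and AT5G48900 and AT2G05790 were left out at 50.4% and 50.6%. AT4G03100 and AT4G10260 had the lowest mean signals, 51.6 and 55.5, and AT3G28840 and AT1G60590 were left out at 49.2 and 49.1.

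A gradient can shrink because the tip signal is lower, because the base signal is higher, or both, and the rule did not fix which. The gradient lost in cov is the sum of the tip deficit (wild type minus cov) and the base excess (cov minus wild type). In 32 genes the base held at least 66.7% of that sum, in 10 genes at most 33.3%, and 8 genes lay between. These are called base, tip and both-ends genes below. The cov base mean was above the wild type base mean for 49 of 50 genes, with a median excess of 1.15 on the log2 scale, and the cov tip mean was below the wild type tip mean for 48 of 50, with a median difference of -0.37. With a pseudocount equal to the table median of 47.4 in place of 12, the rule found 28 genes, of which 10 were base, 5 both-ends and 13 tip genes, so the excess of base genes depends on how low signals are handled.

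Both cov base arrays exceeded both wild type base arrays for 41 of the 50 genes, where 25.3% of all 15923 probe sets tested did so. Both cov tip arrays lay below both wild type tip arrays for 34, against 20.1% of all probe sets. The rule used these contrasts, so nothing is read from the counts. For 25 genes both held.

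**Figure D2:**
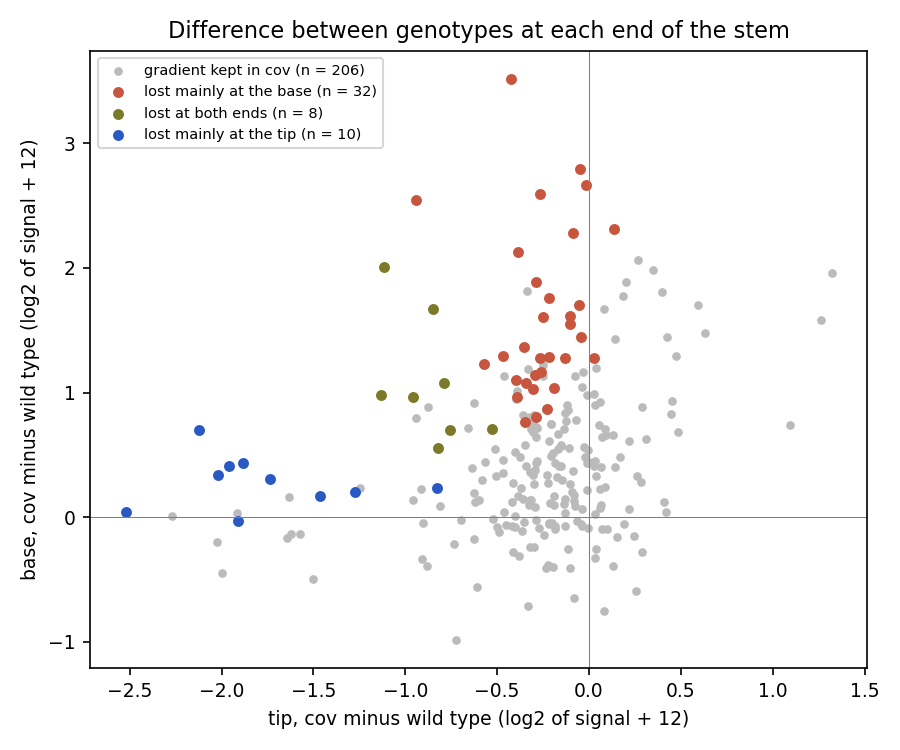
Cov minus wild type at the base against the same difference at the tip (log2 of signal + 12), each point a probe set. The 32 base genes rise along the vertical axis up to 3.52, the 10 tip genes extend to the left as far as -2.52, and the 206 genes with a kept gradient lie mostly around the origin.

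Mean wild type base signal was under the pseudocount of 12 for 16 of the 50 genes, of which 10 were base genes and 6 tip genes. For such genes the log2 gradient understates the ratio of the signals. No member had a value of 0 on any array (0 values).

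The base genes include the largest loss of gradient. AT1G29670 encodes a GDSL lipase, a secreted lipid hydrolase of a family with roles in surface lipids and wall polymers. Its signal was 671 and 733 at the wild type tip, 535 and 504 at the cov tip, 4.9 and 2.9 at the wild type base, and 101.4 and 279 at the cov base. Both cov base arrays stood far above both wild type base arrays, while on the log2 scale the tips differed little by comparison. The base excess was 3.52 ± 0.33 (SE, n = 2 arrays per group) on the log2 scale, the tip difference was -0.43 ± 0.33, and the gradient was 44.9-fold in wild type and 2.92-fold in cov.

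All 4 GDSL lipase genes among the members were base genes. AT3G16370 had 780 and 929 at the wild type tip, 867 and 1010 at the cov tip, 45.0 and 65.1 at the wild type base and 225 and 444 at the cov base. Its tip groups overlapped and its base groups did not. AT1G75900 gave base means of 183 in cov and 45.2 in wild type, and AT4G28780 gave 34.3 and 9.95. On the signal + 12 scale the tip means were within 1.27-fold of each other in both genes. Both cov tip arrays of AT4G28780, at 125.6 and 97.4, lay below both of wild type, at 155.9 and 131.7.

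WSD1, a wax ester synthase of the stem cuticle, was nearly silent at the wild type base with 0.4 and 1.3. At the cov base it had 46.2 and 42.3, and at the tips 387 and 313 in wild type and 291 and 238 in cov. SHN3, an AP2-type regulator of cuticle genes, had 5.5 and 8.9 at the wild type base and 43.7 and 49.5 at the cov base, and its tip groups overlapped (113 and 127 against 87.4 and 140). Both are members of the list on cuticle, wax and surface lipids, which had 5 genes on the array with a usable symbol. The 2 of these 5 that were tip-high in wild type were both members.

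THI2.1, a thionin (a small antimicrobial peptide), had 252 and 511 at the wild type tip, 230 and 382 at the cov tip, 15.1 and 42.0 at the wild type base and 284 and 168 at the cov base. Its cov tip and cov base arrays overlapped. AT2G10940, a proline-rich protein of the lipid transfer class, had 1351 and 1187 at the wild type tip, 1355 and 1105 at the cov tip, 21.3 and 47.5 at the wild type base and 224 and 392 at the cov base. Its tip groups overlapped and its base groups did not.

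DRT100, a leucine-rich repeat protein, had 1014 and 1167 at the wild type tip, 1017 and 1027 at the cov tip, 92 and 96 at the wild type base and 341 and 741 at the cov base. AT4G21650, a subtilisin-like protease, differed at both ends, with 518 and 372 at the wild type tip against 220 and 227 in cov, and 16.5 and 2.7 at the wild type base against 109 and 107 in cov. Its base share was 73.0%. A second subtilase gene, AT3G14240, had base means of 142 in cov and 63.6 in wild type.

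AT5G63180, a pectate-lyase-like gene, was the member whose cov gradient was nearest to 0. It had 240 and 232 at the wild type tip, 224 and 243 at the cov tip, 15.5 and 47.2 at the wild type base, and 170 and 348 at the cov base. The cov tip minus base difference was -0.06 ± 0.35 against 2.62 ± 0.35 in wild type. The pectin-lyase-like genes AT1G67750 and AT5G41870 were base genes too, with base excesses of 1.28 ± 0.24 and 1.14 ± 0.29 on the log2 scale.

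EXPA8, an expansin that loosens primary walls, shows how unequal the cov base arrays could be. It had 10.8 on cov base array 1 and 100.5 on array 2, against 13.7 and 6.2 at the wild type base, so its base groups overlapped. LHCB4.3, a light-harvesting protein of photosystem II, had 293 and 653 at the cov base against 165 and 260 in wild type. In 23 of the 32 base genes cov base array 2 was the higher of the pair. On the signal + 12 scale the ratio of array 2 to array 1 had a median of 1.33 over all 32 and reached 4.93, for EXPA8. Without cov base array 2 the rule gave 44 genes, of which 26 were base genes, and without cov base array 1 it gave 69 and 49.

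**Figure D3:**
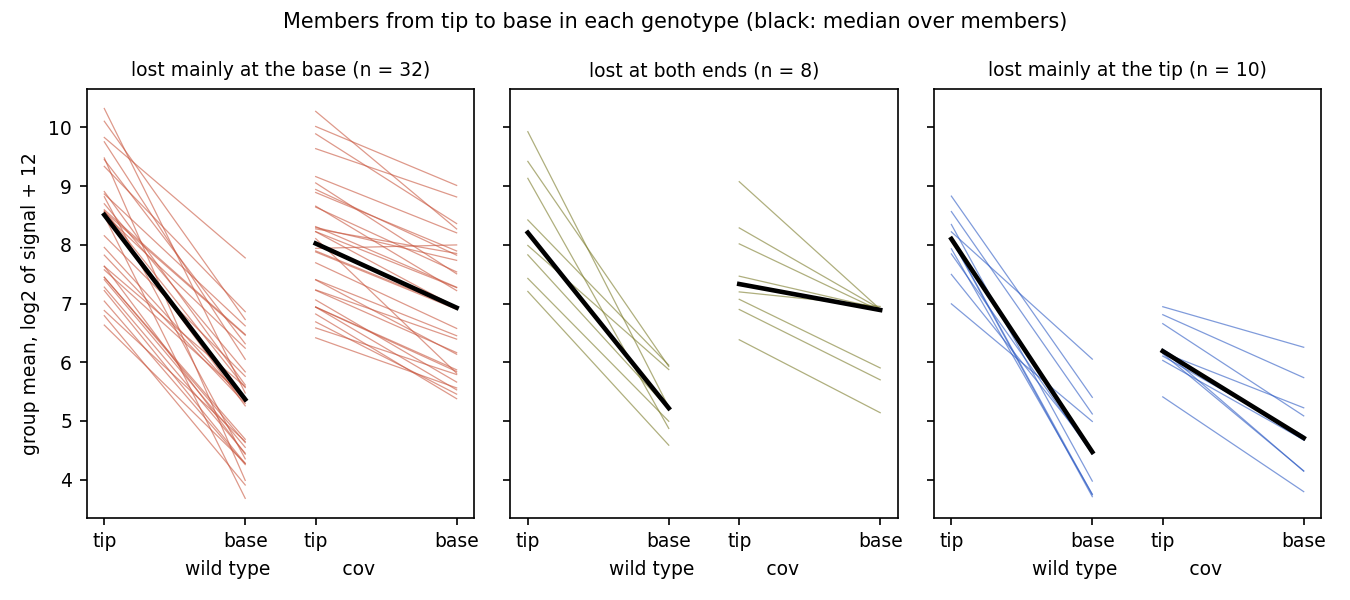
Group means (log2 of signal + 12) at the tip and the base in wild type and in cov, a line for each gene and a black line for the median. In the 32 base genes the cov lines end higher at the base, in the 10 tip genes they start lower at the tip, and in the 8 both-ends genes they do both.

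The other base genes can be placed by family, in a grouping made after the members were known. AT3G12710 and AT5G44680 belong to the DNA glycosylase family, AT4G38660 to the thaumatin family, and AT2G43550 encodes a defensin-like peptide. GLC (GLAUCE) is an acyltransferase of the BAHD family, PRA1.F1 a membrane protein of vesicle traffic, AT3G61950 a bHLH factor, and AT3G12930 a chloroplast protein. Over all base genes the base excess ran from 0.76 to 3.52 on the log2 scale with a median of 1.33. The median tip difference was -0.26, and the cov tip mean was the lower one for 30 of 32. Both cov tip arrays lay below both wild type tips for 16 of 32, where 20.1% of all probe sets tested did so. They lay above both wild type tips for 0 of 32, an arrangement found for 3632 of the 15923 probe sets tested. The rule used the tip values, so nothing is read from these counts.

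Arrays of some markers of cell types also did not overlap between genotypes at the base. With cov higher, 25.3% of all probe sets tested had that arrangement at the base. The share with cov lower was not counted, so the fibre and xylem markers and FDH have no such share beside them. There the summed signal of the 3 fibre and xylem markers was 1235 to 1759 in cov and 2316 to 2902 in wild type, without overlap. FDH, the only one of 14 epidermal markers with a probe set, was at 767 to 808 in cov and 978 to 1037 in wild type. RCA, the only 1 of 14 chlorenchyma markers found, was at 2670 to 2747 in cov and 2308 to 2650 in wild type. Its tip mean was also higher in cov, at 2914 against 2685, with overlapping arrays. The phloem markers SWEET11 and OPS, 2 of 10, summed to 881 to 951 in cov and 228 to 484 in wild type. SWEET11 made nearly all of that difference, with base means of 899 in cov and 341 in wild type, while OPS was at 17.65 and 15.6. On the mean of tip and base, limma called SWEET11 (adjusted p = 0.00222) and none of the others (adjusted p from 0.135 to 0.712). The part of any of these cell types in the base excess was not tested. In whole pieces of stem, fewer cells of a type and less RNA per cell cannot be told apart.

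The 8 both-ends genes were lower at the cov tip and, in 6 of 8, higher at the cov base, without overlap of the arrays in either case. AT5G11420, a cell wall protein of the DUF642 family, had 588 and 512 at the wild type tip, 265 and 230 at the cov tip, 11.4 and 24.7 at the wild type base and 87.3 and 127 at the cov base. The tip difference was -1.12 ± 0.24 and the base excess 2.0 ± 0.24 on the log2 scale. AT5G07030, an aspartyl protease, had 1053 and 876 at the wild type tip, 573 and 485 at the cov tip, 20.6 and 31.5 at the wild type base, and 115 on the brighter cov base array, where the mean was 108.

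COR15B, a cold-regulated chloroplast protein, was almost evenly split, with a tip difference of -1.13 ± 0.17 and a base excess of 0.98 ± 0.17. It had 616 and 735 at the wild type tip, 319 and 283 at the cov tip, 48.5 and 49.3 at the wild type base and 96.5 and 121 at the cov base. All 4 groups were separate, in the order wild type tip, cov tip, cov base, wild type base.

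TBL45, of a family that acetylates wall polysaccharides, and GH9B8, a glycosyl hydrolase of the endoglucanase family, kept 22.3% and 11.7% of their wild type gradient in cov. Lower or similar shares were found for AT5G63180 at -2.25%, THI2.1 at 12.8% and AT4G21650 at 21.9%. TBL45 had 372 and 294 at the wild type tip, 161 and 169 at the cov tip, 47.5 and 52.3 at the wild type base and 95.8 and 123 at the cov base. GH9B8 had 276 and 212, 142 and 128, 37.1 and 58.2, and 81.1 and 152 on the same arrays in that order, and its cov tip and cov base overlapped. AT5G24580, of the metal-binding isoprenylated protein family, AT2G38905, a small membrane protein related to salt and cold response, and AT1G12330 made up the rest of the both-ends genes, with base excesses of 0.70, 0.55 and 0.71.

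Several of the 10 tip genes belong to families that are known from pollen and anthers. AT5G61720, of the DUF1216 family, had 151 and 354 at the wild type tip, 19.9 and 44.7 at the cov tip, and 1.3 to 2.2 on all 4 base arrays. The cov tips lay below both wild type tips, and the bases were at the bottom of the scale in both genotypes. The tip difference was -2.52 ± 0.38, and the base held 1.64% of the lost gradient.

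AT2G47050, of the invertase and pectin methylesterase inhibitor family, had 248 and 396 at the wild type tip and 27.8 and 128 at the cov tip, with 4.3 and 3.2 at the wild type base and 27.7 and 4.4 at the cov base. AT3G07820, a polygalacturonase, had 180 and 384 at the wild type tip and 33.5 and 98.2 at the cov tip, with 7.6 or less on every base array. The cov tip arrays of AT2G47050 differed by 3.52-fold on the signal + 12 scale, yet neither gene reached its wild type range on either array. AT3G28750 had 152 and 443 at the wild type tip and 32.8 and 110 at the cov tip, with 1.2 or less on 3 base arrays and 11.7 on cov base array 1.

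AT5G19580, a glyoxal-oxidase-related gene, had 314 and 622 at the wild type tip, 81.0 and 123 at the cov tip, 30.1 and 30.5 at the wild type base and 48.1 and 35.4 at the cov base. AT3G01270, a pectate lyase, had 272 and 493, 61.5 and 127, 18.6 and 27.5, and 27.0 and 17.6 in the same order. It was the only member whose base mean was not higher in cov, at -0.03 ± 0.33. AT1G72110 is a relative of the wax ester synthase WSD1. It had 195 and 244 at the wild type tip and 56.1 and 57.6 at the cov tip. The genotypes thus differed at the tip for AT1G72110, whereas on the log2 scale WSD1 differed mainly at the base.

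The remaining tip genes were AT1G10770 and AT5G62360, both of the invertase and pectin methylesterase inhibitor family, and AT4G10260, a pfkB-type carbohydrate kinase. All 3 members of that inhibitor family were tip genes, with tip differences of -2.12 to -1.27. Of the 5 pectin-degrading or pectin-lyase-like members, 3 were base genes and 2 tip genes. On the log2 scale the cov minus wild type difference at the tip had, over the 10 genes, a median of -1.90 and ranged from -2.52 to -0.83.

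The 2 arrays of a tip group were not equal for these genes. Tip array 2 was the higher one for 9 of 10 in wild type and for 9 of 10 in cov. Over all 10 genes the ratio of array 2 to array 1, on the signal + 12 scale, had a median of 1.67 in wild type and 1.83 in cov. The anther markers with a probe set were AMS, AT59 and TET15, 3 of 22 listed, and their summed signal was 119 to 131 on wild type tips and 47.3 to 77.9 on cov tips. Of these TET15, which was 61.7 at the wild type tip and 5.7 at the cov tip, made most of the difference, while AMS, a tapetum regulator, was at 51.9 and 47.9. The part of anther tissue in the tip deficit was not tested.

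**Figure D4:**
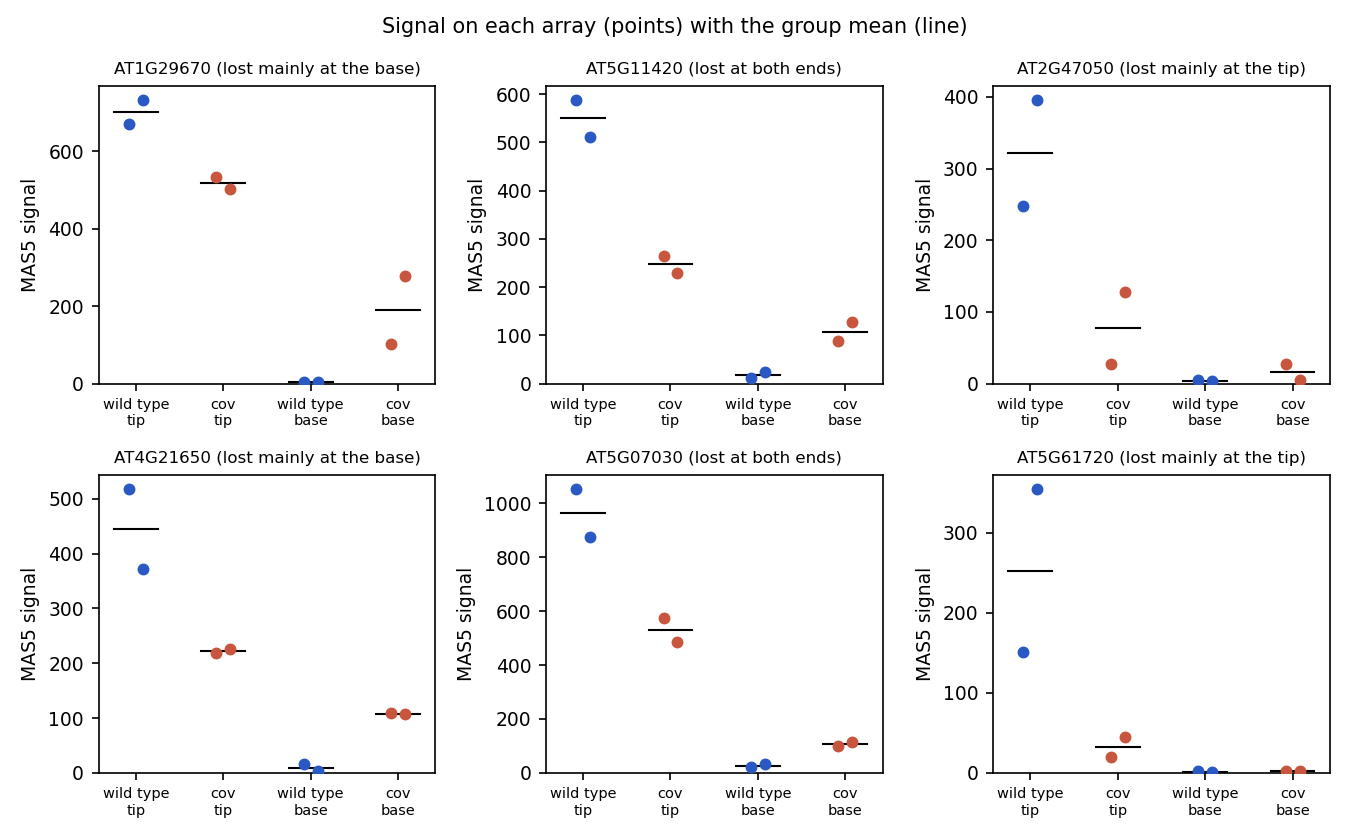
MAS5 signal on each array (points, n = 2 per group) with the group mean (line) for the base, both-ends and tip genes of largest lost gradient. On the log2 scale used for the gradients, AT1G29670 and AT4G21650 differ most at the base and AT2G47050 and AT5G61720 at the tip. AT5G11420 and AT5G07030 differ at both ends. In plotted signal AT4G21650 differs more at the tip. Its wild type and cov means are 444.9 and 223.2 there, and 9.6 and 107.5 at the base.

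One contrast of the 4 group means was not used by the rule, the cov minus wild type difference averaged over tip and base. It is near 0 where tip deficit and base excess are equal, positive where the base excess is larger and negative where the tip deficit is larger. With limma over 15923 probe sets, 13 of the 50 genes were higher in cov on this mean (26%), where 3.33% of all probe sets were called higher. Lower in cov were 4 of 50 (8%), where 1.3% of all probe sets were called lower. The other 33 were not called, with adjusted p from 0.0618 to 0.995. A gene with a large loss at one end alone must also shift on the mean, so these shares say how uneven the loss was and are no separate evidence of it. Over all probe sets 530 were higher and 207 lower, a split that became 408 and 254 with each array centred on its median.

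The raised genes were all base genes, which follows from how that group was formed. AT1G29670 was 2.92-fold higher in cov on the mean of both ends (95% limits 2.04 to 4.18, n = 2 arrays per group, limma adjusted p = 0.00385). AT2G10940 was 2.59-fold higher (1.89 to 3.54, adjusted p = 0.00363), AT3G16370 2.33-fold (1.74 to 3.13, adjusted p = 0.00476) and DRT100 2.14-fold (1.59 to 2.88, adjusted p = 0.00937). These 4 calls held in each of the 17 alternative settings run. WSD1 was 1.83-fold higher (1.499 to 2.23, adjusted p = 0.00363), a call lost only with the pseudocount at the table median (0.149).

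AT5G63180 was 2.5-fold higher (1.71 to 3.67, limma adjusted p = 0.0131). Leaving out wild type tip array 1 or 2, or cov tip array 2, moved its adjusted p to 0.0503, 0.0508 and 0.0516, and testing with no filter on dim probe sets to 0.0521. THI2.1 was 2.24-fold higher (1.45 to 3.46, adjusted p = 0.0431) and AT4G21650 1.74-fold (1.297 to 2.35, adjusted p = 0.0421). They lost their calls in 9 and 13 of the 17 settings, both other pseudocounts and 5 and 7 of the 8 omissions of an array among them. AT5G22580 (a stress-responsive A/B barrel protein), AT1G75900, SHN3, AT3G23760 and GLC were called with log2 differences of 0.80, 0.82, 0.76, 0.72 and 0.70, and lost the call in 7, 7, 7, 8 and 13 of the 17 settings, of which 6, 6, 5, 6 and 7 were omissions of an array.

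The lowered genes were AT5G61720 at 2.36-fold (1.56 to 3.57, adjusted p = 0.0266), AT3G01270 at 1.96-fold (1.36 to 2.82, adjusted p = 0.0439), AT5G19580 at 1.79-fold (1.304 to 2.46, adjusted p = 0.0461) and AT1G72110 at 1.64-fold (1.27 to 2.13, adjusted p = 0.039). All 4 were tip genes. They lost their calls in 7, 10, 11 and 8 of the 17 settings, of which 5, 6, 7 and 6 were omissions of an array, and the number of lowered members was 0 without wild type tip array 2, cov tip array 1, wild type base array 2 or cov base array 1. None of the both-ends genes was called (0 of 8), with log2 differences of -0.13 to 0.44 and adjusted p from 0.121 to 0.995 by limma. The number of raised members lay between 5 without cov tip array 2 and 19 without cov base array 1.

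**Figure D5:**
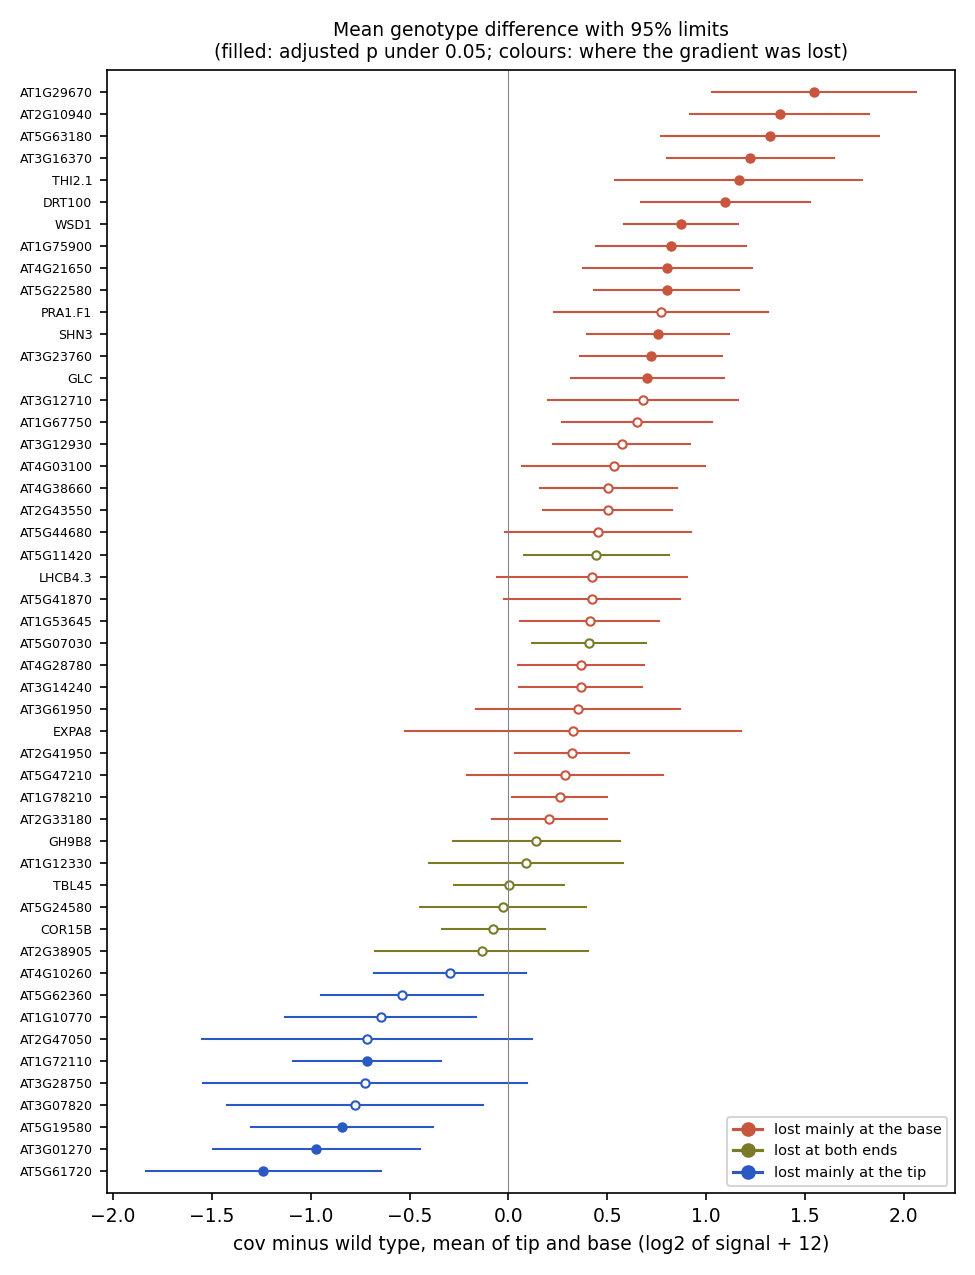
Cov minus wild type, averaged over tip and base (log2 of signal + 12), with 95% limits from limma for each of the 50 genes, filled where the adjusted p was under 0.05. The 13 raised genes are base genes with differences of 0.70 to 1.55, the 4 lowered genes are tip genes with -1.24 to -0.72, and the both-ends genes lie between -0.13 and 0.44.

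For comparison, of the 206 tip-high genes that kept their gradient, 17 (8.25%) were called higher and 7 (3.40%) lower on the same mean, with a median of 0.05 against 0.41 for the 50 genes. No test between these sets was run, because the rule that separated them used the same arrays.

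Few members had a symbol that placed them in a gene list, since most are known by locus alone. Of 40 tested genes for wall loosening and the primary wall, 5 were raised and 0 lowered on the mean contrast (median 0.11), 5 were tip-high in wild type, and 2 of these were members, EXPA8 and GH9B8. Of 5 tested cuticle genes 2 were raised, WSD1 and SHN3, and 0 lowered (median -0.12). Of 16 tested defence and stress genes 3 were raised and 1 lowered (median 0.03), and THI2.1 and COR15B were members. Of 14 photosynthesis genes 0 were raised and 0 lowered, and LHCB4.3 was a member and 1 of 2 that were tip-high. Over all probe sets the median was 0.02, with 3.33% called higher and 1.3% lower.

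The other symbol lists held 0 members. In them 0 of 14 cell division and chromatin genes were called in either direction, with 1 tip-high in wild type, and of 17 sugar and lipid genes 1 was raised and 1 lowered, with 4 tip-high. Of 7 vascular patterning genes 1 was raised, of 8 secondary wall and lignin genes 1, of 5 glucosinolate genes 3 and of 15 organ and meristem regulators 1, with 0 lowered in these. Of 6 auxin genes 2 were lowered, and of 7 anther and pollen genes 1, with 0 raised in either. The 2 genes of the ribosome list were not called. Lists this short cannot be set closely against the shares of 3.33% and 1.3% over all probe sets, and no list was tested.

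Members of a group resembled each other across the 8 arrays. Over pairs of base genes the median Pearson correlation of log2 signal was 0.95 (496 pairs), over pairs of tip genes 0.97 (45 pairs), and between a base gene and a tip gene 0.79 (320 pairs). Over pairs of both-ends genes it was 0.95 (28 pairs). Between a both-ends gene and a base gene it was 0.92 (256 pairs), and between a both-ends gene and a tip gene 0.88 (80 pairs), so the groups are not sharply apart. These values describe 8 arrays that share the contrast of tip and base, and the genes were selected on it. The 3 genes most like AT1G29670 were AT5G22580 (r = 0.998), DRT100 (0.997) and AT1G75900 (0.995), all members. Those most like AT2G47050 were the members AT3G28750, AT3G07820 and AT1G10770, with r from 0.977 to 0.986. The closest to AT5G61720 were the members AT5G19580 (0.994) and AT3G01270 (0.992), followed by AT3G28980 (0.988), which missed the rule.

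For the other leading genes most of the closest patterns lay outside the 50. AT1G10180, AT2G42910 and AT1G73930 were most like AT4G21650, with r from 0.979 to 0.987 but wild type gradients of 0.60 to 1.23. AT1G23220, AT5G50000 and AT1G52700 were most like AT5G11420 (r from 0.989 to 0.991), also with smaller gradients, 0.73 to 1.42. The gene nearest to AT5G07030 was the base gene AT4G28780 (r = 0.997), followed by AT2G37660 and AT1G74730 outside the 50.

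The genes are scattered over the genome. In the gene order of the TAIR10.1 annotation only 2 pairs of members lay within 20 genes of each other, AT1G72110 with THI2.1 (19 genes apart) and DRT100 with AT3G12710 (13 genes apart). The first pair joins a tip gene to a base gene and the second joins base genes. One member gene, GLC, had a second probe set, which was dim at a mean signal of 15.4 and had gradients of 1.48 in wild type and 1.22 in cov, so the reduction was smaller there.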

How the data were processed

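The submitters' processing notes name MAS5, with no version given. Per these notes each deposited value is the MAS5 signal, a linear intensity, of a probe set on 1 of 8 biotin-labelled arrays. Trimming 2% from both ends left a mean of 100.0 on all of them, and no scaling was added. Of the probe sets, 64 controls were left out, 13513 had 1 gene, 503 several and 8730 none. Symbols were updated by gene identifier from the RefSeq annotation of TAIR10.1 for 13436, and 77 kept their earlier name. The table had 0 columns of no sample.

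A pseudocount of 12 was added before log2, which draws the differences of dim genes toward 0. All fold values are on the signal + 12 scale. Group means were fitted with limma 3.58.1 in R 4.3.3 (lmFit, eBayes with a variance trend, 4 residual degrees of freedom) on 15923 probe sets with mean signal of at least 21.4, the 30th percentile, which left out 6823 and kept all 50 members. P-values are two-sided and Benjamini-Hochberg adjusted over all probe sets at 0.05. The contrast tested is orthogonal to both gradients where tip and base arrays vary alike. Precision is limited by having 2 arrays in a group, and p-values measure only the spread between these arrays, which may be technical. The fit was checked on simulated data. The members, lists, markers and tests were chosen with earlier results of these data known.

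Genes named are the 7 of largest lost gradient in each group, up to 5 raised and 5 lowered on the tested contrast, the 4 flattest in cov, up to 3 per list and the 2 nearest to each limit of the rule. Other members are named by family, chosen after their values were seen. Family roles come from general knowledge, not from the files. Promoter and protein sequences were not used here. Alternatives covered the pseudocount, scaling, filter, variance model, replicate number and each array left out.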

Additional observations from a re-analysis of the deposited data

Results flagged for a closer look

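In 25 of the 50 genes both cov arrays lay below both wild type arrays at the tip and above both at the base, so that the genotypes differed in opposite directions at the ends of the stem. The rule selected for this, and the difference was not tested. Of the 25, 4 were tip genes, and for some of these the base arrays were dim and only just apart. AT2G47050 had 27.7 and 4.4 at the cov base against 4.3 and 3.2 in wild type. AT3G07820 had 7.6 and 4.1 against 1.4 and 1.4, and AT1G10770 had 13.7 and 13.5 against 11.6 and 9.9. For these 3 genes little can be read from the direction at the base. Among these 25 genes alone, the base minus tip value of cov minus wild type, on the log2 scale, was largest for AT1G29670 at 3.94, AT4G21650 at 3.49 and AT5G11420 at 3.12. It was 2.82 for AT2G47050, 2.52 for AT5G07030, 2.52 for WSD1, 2.37 for AT3G07820, 2.35 for AT5G19580, 2.18 for AT5G22580 and 2.11 for COR15B. Values between 1.5 and 2 were found for PRA1.F1 at 1.98, TBL45 at 1.92, GH9B8 at 1.86, AT3G12710 at 1.85, AT1G53645 at 1.76, AT1G10770 at 1.64 and AT3G61950 at 1.502. The smallest of the 25 were AT4G03100 at 1.498, AT5G24580 at 1.46, AT5G44680 at 1.42, AT4G28780 at 1.42, LHCB4.3 at 1.23, AT2G33180 at 1.11, AT2G41950 at 1.09 and AT1G78210 at 1.09. Among all 15923 probe sets tested 734 had this arrangement of arrays, and among the 206 tip-high genes with a kept gradient 36 did.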

How the results depend on the processing

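The choice of members and their grouping depend on dim signals. A pseudocount at the table median gave 28 genes (10 base, 5 both-ends, 13 tip), of which 22 were among the 50, and a pseudocount of 1 gave 77 (58 base, 12 both-ends, 7 tip), 48 among the 50. Median centring gave 45 and quantile normalization 46, with 45 and 44 shared. Leaving out each array in turn gave 44 to 72 members, of which 34 to 46 were shared, with 26 to 49 base, 6 to 22 both-ends and 6 to 17 tip genes. Both-ends genes numbered 22 without wild type tip array 2, and tip genes 17 without cov tip array 2.

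On the mean genotype difference, 13 raised and 4 lowered members became 7 and 4 under the pseudocount of the table median, 11 and 0 with a pseudocount of 1, 5 and 0 with no filter on dim probe sets, 10 and 2 with no variance trend and 14 and 2 with array weights, and the cause was not tested. Without each array in turn, 5 to 19 were raised and 0 to 3 lowered, over all probe sets 268 to 553 raised and 70 to 208 lowered. With no filter 126 of all probe sets were lowered. Fewer samples enter each omission. No called member changed sign in any setting run (0 reversed). The replicate block, with the array number of the titles as a term, gave 13 raised and 4 lowered members, with GLC no longer called (adjusted p = 0.0503) and AT1G67750 called in its place. Deviations of same-numbered arrays correlated at 0.20 between wild type tip and cov tip, and at -0.07 to 0.05 between the other groups. The numbers were not taken as pairs, and whether same-numbered tip arrays share an effect was not tested.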

Other observations

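Another 66 probe sets with several genes or no gene in the annotation met the same limits of signal and gradient, out of 286 that were tip-high in wild type. Of these 38 were base, 12 both-ends and 16 tip probe sets, and 24 were higher and 7 lower in cov on the mean of both ends, where 3.33% and 1.3% of all probe sets were called. They are not named here. COR15A, a relative of COR15B, had mean signals of 331 and 258 at the wild type and cov tips and 2.3 and 38.4 at the bases, and SWEET11, a sugar transporter of the phloem, had 226 and 740 at the tips and 341 and 899 at the bases in the same order. Both were called higher in cov on the mean contrast, by 0.74 and 1.56 on the log2 scale (limma adjusted p = 0.0103 and 0.00222), and neither is a member.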
